A study of Drosophila melanogaster with 18 samples.

Results

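Respiratory complex I, the NADH dehydrogenase of mitochondria, is built from nuclear and mitochondrial gene products, and the genes described here are its nuclear subunit genes in *tud* mutant and control Drosophila. They were taken as every nuclear gene in the table whose FlyBase symbol starts with ND-, which gave 40 of 17288 gene identifiers. Of these, 34 are canonical subunit genes and 6 are paralogs, named for a canonical gene with an L added (*ND-20L*, *ND-24L*, *ND-49L*, *ND-51L1*, *ND-51L2* and *ND-B14.5AL*), which were kept apart.

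RNA-seq was carried out on ovaries and on brains of both sexes, dissected by hand from young flies kept at 25 °C, with 3 libraries in each of 6 groups. Mutants were y,w; tud1,bw,sp/Df(2R)Pu rP133, so that they carried the tud1 allele over a deficiency. Controls, labelled wild-type, were y,w; tud1,bw,sp/CyO,P[w+,hs-hid], so that tud1, bw and sp on 1 second chromosome were common to both genotypes, and the other second chromosome was the CyO balancer in controls and the deficiency in mutants. Differences that come from *tud*, from other genes of the deficiency and from the balancer cannot be told apart. Brains were pooled from many flies within a dissection, the design text calls the 3 libraries of a group biological replicates, and p-values below measure the spread between them.

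Complex I takes electrons from NADH in its matrix arm, hands them through a chain of iron-sulfur clusters to ubiquinone, and uses the energy released to pump protons across the inner membrane. Core subunits of the matrix arm carry the flavin and the iron-sulfur clusters, core subunits of the membrane arm are encoded by mitochondrial DNA, and accessory subunits surround both arms and hold the assembly together. Neurons and photoreceptors draw heavily on oxidative phosphorylation, while growing egg chambers are stocked with mitochondria by the nurse cells. The 7 mitochondrial complex I genes (mt:ND) were listed at 0 in every library, as were all 35 mitochondrial genes in the table, so the membrane core was not analysed here.

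The libraries were checked on a few genes outside the complex. Levels are in FPKM, fragments scaled by transcript length and library size, which is a level per length. In ovaries *tud* was at 61.0 to 67.2 FPKM in controls and 9.10 to 12.4 in mutants (log2 difference -2.44 ± 0.11 SE, limma adjusted p = 1.18e-04). In brains it was at 20.2 to 36.2 in controls and 12.9 to 32.3 in mutants, groups that overlapped (-0.54 ± 0.22 SE, limma adjusted p = 0.094), and the library labelled *tud* mutant female brain replicate 2 had the 32.3. Sex markers matched the labels, with the male dosage compensation RNA *roX1* at 223 to 1111 FPKM in male brains and 3.53 to 16.2 in female brains. A second such RNA, *roX2*, was at 378 in control male brain replicate 2 and 11621 to 18619 in the other male brains. In female brains *roX2* was at 10.2 to 32.6. Markers of neurons summed to 278 to 1560 FPKM in brains and 0.965 to 1.58 in ovaries, and germline markers to 693 to 820 in ovaries and 1.52 to 8.78 in brains. Depth, as judged from the spacing of the lowest FPKM values, was 5.51e+06 to 1.55e+07 fragments in brains and 2.17e+07 to 3.03e+07 in ovaries. Control male brain replicate 2 stood apart, with a median correlation of 0.836 with the other brain libraries against at least 0.899 in the others, and the calls that change without it are named below.

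The canonical genes covered a wide range of levels. Their summed FPKM made up 1.56% to 2.31% of that of all protein-coding genes in the 12 brain libraries and 0.661% to 0.688% in the 6 ovary libraries, ranges that did not overlap. The highest was *ND-MLRQ*, the counterpart of human NDUFA4, a small membrane protein first described with complex I and since assigned to cytochrome c oxidase in mammals. It reached 2160, 2492 and 1774 FPKM in female control brains and 1225, 1042 and 1336 in control ovaries. *ND-MWFE*, the counterpart of human NDUFA1, came next in female brains at 697, 722 and 701 FPKM.

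At the other end stood *ND-B8*, an accessory subunit of the matrix arm and the counterpart of human NDUFA2. It had 2.62, 1.63 and 0.502 FPKM in control female brains, 1.53, 0 and 3.59 in control male brains and 0.536, 0.383 and 0.142 in control ovaries, no more than about 9.1 estimated fragments in any library. At chr2L:4454626-4455207 (dm6, as are all positions here), its exons overlap those of *Gs1l* on the other strand, and it is the shortest of the set, with 460 bases of exon. Leaving it aside, the lowest gene mean among control female brains was that of *ND-B18* (43.8, 33.9 and 83.9 FPKM), an accessory subunit of the distal membrane arm. Subunits of one complex thus differed widely in RNA level per length.

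The order of the genes was much alike between tissues. Over the 34 genes the mean levels of control female brains had a rank correlation of 0.831 with those of control ovaries and 0.897 with those of control male brains, as a description over genes that share libraries and base composition. The plot of control libraries shows where tissues separated.

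**Figure D1:**
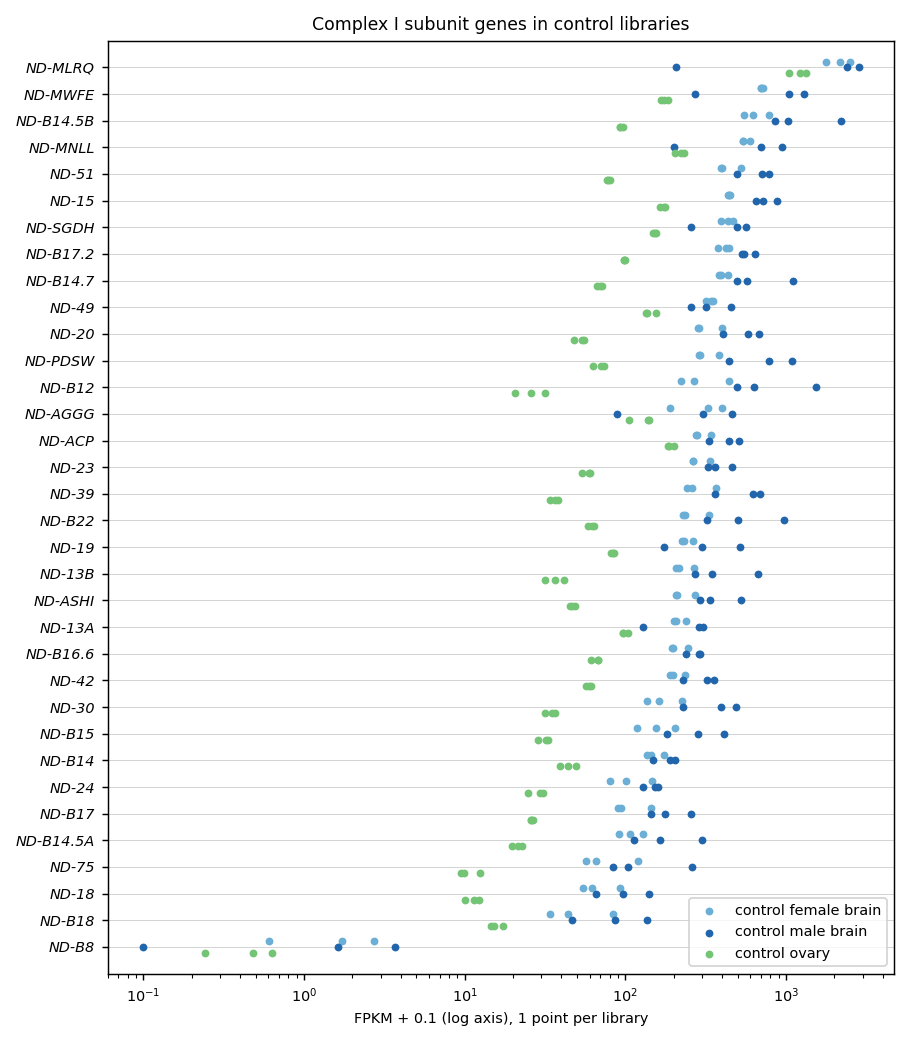
FPKM of the 34 canonical complex I genes in the 9 control libraries, 1 point per library, with 0.1 added so that a 0 can be drawn on the log axis, and genes sorted by their mean in control female brains. Ovary points lie left of the female brain points for all genes but *ND-B8*, from 1.57-fold (*ND-ACP*) to 12.02-fold (*ND-B12*) in the mean, and 1 male library lies far to the left for *ND-MLRQ* (207 FPKM).

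Complex I genes were lower in ovaries than in female brains of the same genotype, almost without exception. In controls 33 of the 33 genes tested were lower in ovaries (limma, adjusted p of 0.05 or less), where 44.3% of all 10443 genes tested were lower, and every ovary library lay under every female brain library for each of the 33, as it did for 47.7% of all genes. The median log2 difference was -2.05, against -0.21 over all genes tested. In a bulk sample, fewer cells of a type and less RNA per cell cannot be told apart. *ND-B8* was too low to be tested.

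*ND-B12*, the counterpart of human NDUFB3 in the distal membrane arm, had the largest difference. It was at 267, 221 and 443 FPKM in female control brains and 20.4, 31.4 and 25.7 in control ovaries (log2 difference -3.49 ± 0.45 SE, limma adjusted p = 2.42e-05). *ND-39*, the counterpart of NDUFA9, which lies near the quinone channel, was at 260, 240 and 364 FPKM in brain and 34.1, 37.8 and 36.3 in ovary (-2.94 ± 0.25, limma adjusted p = 6.88e-07). Tissue groups were far apart for both genes. *ND-B14.5B*, the NDUFC2 counterpart, fell from 626, 549 and 787 FPKM to 92.5, 93.0 and 96.2 (-2.77 ± 0.33, limma adjusted p = 1.39e-05). *ND-75*, the counterpart of NDUFS1 and the largest core subunit, which holds several iron-sulfur clusters, was at 65.4, 56.8 and 119 FPKM in brain and 9.75, 12.3 and 9.43 in ovary (-2.76 ± 0.26, limma adjusted p = 1.82e-06). Among the genes with the largest falls were also the accessory *ND-13B* (-2.62 ± 0.23, limma adjusted p = 7.98e-07), *ND-B14.7* (-2.54 ± 0.25, adjusted p = 2.34e-06) and *ND-18* (-2.51 ± 0.24, adjusted p = 2.18e-06). The core subunit *ND-20*, which binds the last iron-sulfur cluster before quinone, fell by 2.59 ± 0.22 on the log2 scale (limma adjusted p = 6.07e-07).

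Tissue differences were smallest for 3 genes. *ND-ACP*, the mitochondrial acyl carrier protein, which also serves lipoic acid and iron-sulfur cluster synthesis, was at 276, 278 and 340 FPKM in female control brains and 200, 185 and 184 in ovaries (log2 difference -0.64). *ND-MLRQ* differed by -0.83 and the zinc-binding accessory subunit *ND-13A* by -1.11. The core subunits ranged from -1.24 (*ND-49*) to -2.76 (*ND-75*), so the core itself was not uniform.

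In mutants 32 of the 33 genes were lower in ovaries (43.4% of all genes tested), with a median of -1.60 against -0.16 over all genes. *ND-ACP* was the exception, at 296, 177 and 246 FPKM in mutant female brains and 169, 197 and 194 in mutant ovaries, groups that overlapped (-0.33, limma adjusted p = 0.104). The largest falls were again led by *ND-B12* (-2.49 ± 0.45, limma adjusted p = 3.49e-04) and *ND-B14.5B* (-2.30 ± 0.33, adjusted p = 6.44e-05). They also took in *ND-B14.7* (-2.22 ± 0.25, limma adjusted p = 7.17e-06), *ND-AGGG* (-2.16 ± 0.36, adjusted p = 1.92e-04), *ND-39* (-2.14 ± 0.25, adjusted p = 1.05e-05) and *ND-B14.5A* (-2.10 ± 0.28, adjusted p = 2.97e-05). *ND-20* (-2.09 ± 0.22, limma adjusted p = 3.80e-06) and the flavin-binding core subunit *ND-51* (-2.01 ± 0.16, adjusted p = 4.21e-07) completed the 8 largest. Both tissue comparisons use separate libraries, and the 2 genotypes were set against each other in the test of the change given below.

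Nuclear genes of the other respiratory complexes showed the same direction. Of 36 genes of complexes II to V tested, 31 were lower in control ovaries and 0 were higher, with a median of -1.70. Of 70 mitochondrial ribosomal protein genes, 34 were lower and 11 higher, with a median of -0.40. Of all genes tested 44.3% were lower, with a median of -0.21, so this count was near the background.

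Complex I genes were lower in *tud* mutant brains. With both sexes in the fit, 17 of 34 canonical genes were lower in mutants and 0 were higher (limma, adjusted p of 0.05 or less), where 10.8% of the 10689 genes tested were lower and 14.2% higher. The difference was negative for 31 of the 34, and its median was -0.62 on the log2 scale, a fold of 0.652, against 0.07 over all genes tested. For 12 genes the mutant libraries lay under the control libraries in both sexes, which held for 9.01% of all genes. An unadjusted p under 0.05 was reached by 21 of the 34, and by 4462 of the 10689 genes tested.

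**Figure D2:**
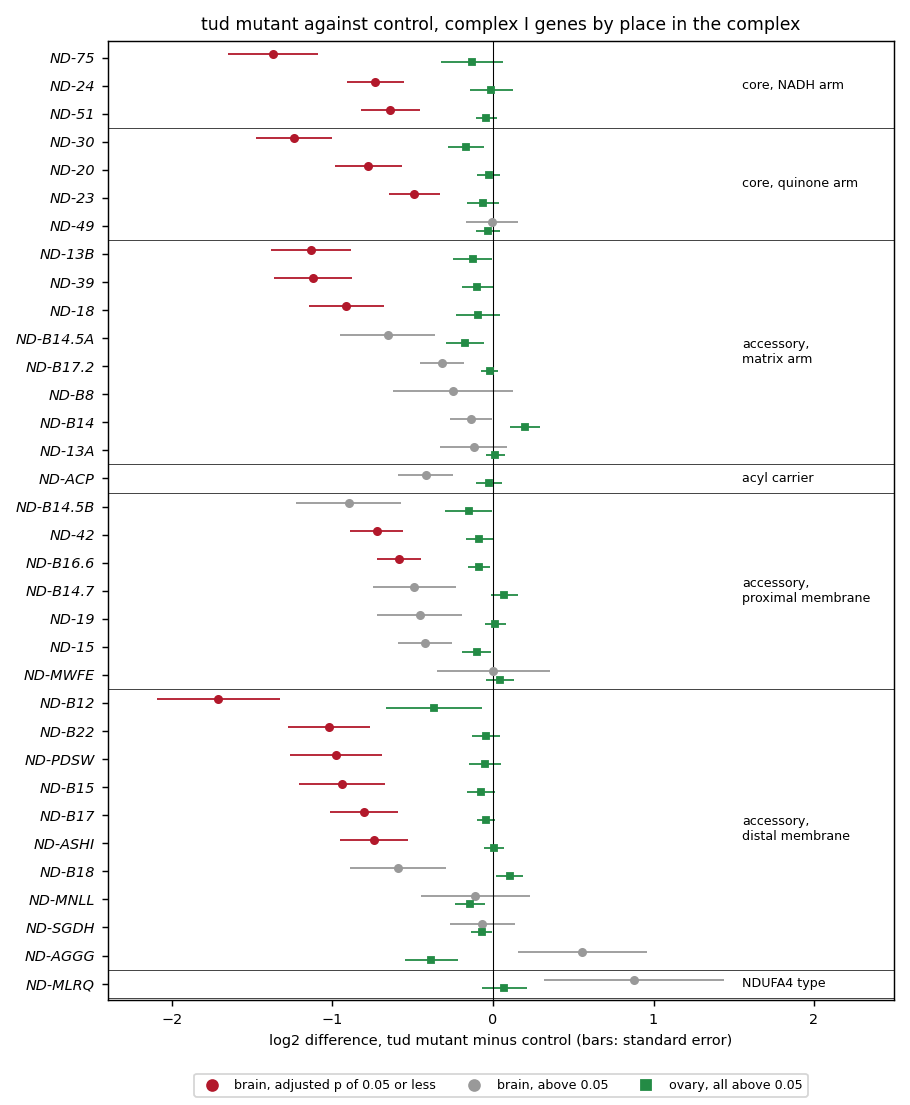
Log2 difference between *tud* mutants and controls with its standard error, for the 34 canonical genes in brain (circles, mean of both sexes, 12 libraries) and the 33 tested in ovary (squares, 6 libraries), grouped by place in the complex. The 17 red circles run from -1.71 (*ND-B12*) to -0.49 (*ND-23*), and the ovary values lie between -0.39 and 0.20.

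All core subunits of the NADH-oxidising end of the matrix arm were lower. *ND-75*, at chrX:8248651-8251687, was at 65.4, 56.8 and 119 FPKM in control female brains against 32.7, 27.3 and 32.4 in mutants, and at 84.1, 261 and 104 in control male brains against 37.2, 50.1 and 56.6 in mutants. No mutant library reached the lowest control library of its sex (log2 difference -1.37 ± 0.28 SE, limma adjusted p = 0.016). Without control male brain replicate 2, which gave the 261, the difference was -1.13. *ND-51*, which binds NADH and flavin, was at 396 to 784 FPKM in control brains and 245 to 449 in mutant brains (-0.64), and *ND-24*, its iron-sulfur partner, at 80.5 to 160 and 55.3 to 123 (-0.73).

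Of the 4 core subunits next to quinone, 3 were lower. *ND-30*, the NDUFS3 counterpart at chr3L:3158485-3159578, was at 162, 136 and 225 FPKM in female control brains and 110, 60.0 and 97.4 in mutants. In males it was at 229, 489 and 394 against 102, 120 and 156, so that the groups were apart in both sexes (-1.24 ± 0.24, limma adjusted p = 0.013). *ND-20* was at 284 to 675 FPKM in control and 151 to 315 in mutant brains (-0.78), and *ND-23*, another iron-sulfur subunit, at 264 to 464 and 167 to 325 (-0.49, the called gene nearest the threshold, with a limma adjusted p of 0.048).

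*ND-49*, the core subunit at the quinone site, was the exception. It is the gene of the set on chromosome 4, at chr4:568296-571554. Its levels were 315, 350 and 339 FPKM in female control brains and 278, 365 and 331 in mutants, then 315, 457 and 257 in control male brains and 373, 344 and 314 in mutants. The groups overlapped in both sexes (-0.01 ± 0.16 SE, limma adjusted p = 0.984).

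*ND-49* also varied apart from its partners within groups. When each brain library was set against its group mean, *ND-49* had a median correlation of -0.75 with the other 33 genes over 12 libraries, whereas 32 genes lay between 0.20 and 0.83, with *ND-B14.5B* highest. These are descriptions across libraries that share depth and preparation, with the group means taken out. *ND-75*, at 0.03, also stood apart from the rest. Control male brain replicate 2 was among the 12 libraries, and the correlations were not computed without it. Against the other control male brains it was higher by 1.48 for *ND-75*, 1.26 for *ND-B22* and 0.68 for *ND-49*. It was lower for 24 of the 34 genes. *ND-30* was higher by 0.70 in it, with a median correlation of 0.51.

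Accessory subunits of the matrix arm were mixed, with 3 of 8 lower and a median of -0.49. *ND-13B*, the NDUFA5 counterpart, was at 214, 207 and 266 FPKM in female control brains and 170, 82.7 and 116 in mutants, and at 345, 272 and 669 against 136, 147 and 201 in males (-1.13 ± 0.25, limma adjusted p = 0.017). *ND-39* was at 260, 240 and 364 against 214, 98.6 and 164 in females and 360, 624 and 689 against 170, 209 and 265 in males (-1.12 ± 0.24, limma adjusted p = 0.017). Both genes had every mutant library under the controls of its sex. *ND-18*, whose human counterpart NDUFS4 is a frequent site of complex I disease, was at 54.7 to 141 FPKM in control brains and 26.1 to 64.5 in mutant brains (-0.91). The other 5 did not pass the test. *ND-B14.5A* was at 90.8 to 298 FPKM in controls and 50.3 to 139 in mutants (-0.66), *ND-B17.2* at 375 to 640 and 287 to 464 (-0.32), *ND-B14*, an LYR-motif protein, at 137 to 204 and 120 to 173 (-0.14), and *ND-13A* at 129 to 302 and 163 to 250 (-0.12). *ND-B8* was at 0 to 3.59 and 0.285 to 1.76 (-0.25). *ND-ACP*, which binds LYR proteins at both arms, was at 276 to 512 FPKM in controls and 177 to 330 in mutants, with a difference of -0.42 that did not pass either.

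Around the proximal membrane arm 2 of 7 accessory subunits were lower, again with a median of -0.49. These were *ND-42*, a relative of nucleoside kinases (189 to 354 FPKM in control and 103 to 195 in mutant brains, -0.72), and *ND-B16.6*, the GRIM-19 counterpart (195 to 293 and 124 to 184, -0.58). *ND-B14.5B* had a larger difference with a wider error, at 549 to 2203 FPKM in controls and 223 to 769 in mutants (-0.90 ± 0.33, limma adjusted p = 0.064). *ND-B14.7*, a relative of the Tim17 import proteins, was at 384 to 1104 and 208 to 491 (-0.49), *ND-19* at 173 to 518 and 119 to 268 (-0.46), and *ND-15* at 434 to 878 and 298 to 498 (-0.42). *ND-MWFE* was at 271 to 1288 in controls and 465 to 919 in mutants (0.00).

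The distal membrane arm held 6 of 10 accessory genes that were lower, with a median of -0.77. *ND-B12*, at chr2R:21658078-21658777, was at 267, 221 and 443 FPKM in female control brains and 193, 54.9 and 140 in mutants. In males it was at 492, 627 and 1540 in controls and 128, 183 and 284 in mutants. No mutant library reached a control of its sex (-1.71 ± 0.38, limma adjusted p = 0.018). This gene lies 465.2 kb from *tud*, the next nearest of the set after *ND-B14.7* at 157.2 kb.

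*ND-B22*, an LYR-motif protein, was at 235, 227 and 329 FPKM in control female brains against 175, 126 and 171 in mutants, and at 324, 964 and 501 in control male brains against 180, 213 and 267 (-1.02 ± 0.25, limma adjusted p = 0.023). Here too control male brain replicate 2 was the highest library, and the difference without it was -0.81. *ND-PDSW* was at 291, 288 and 380 against 321, 122 and 249 in females, which overlap, and at 443, 779 and 1084 against 221, 252 and 372 in males (-0.98 ± 0.29, limma adjusted p = 0.034). Its call was lost without control male brain replicate 2 (-0.95, limma adjusted p = 0.055), and in 8 of the 12 fits that left out 1 library. *ND-B15* was at 154, 118 and 202 against 123, 55.1 and 110 in females, overlapping by 1 library, and at 282, 180 and 412 against 98.8, 121 and 167 in males (-0.94 ± 0.27, limma adjusted p = 0.032), a call lost in 7 of those 12 fits. *ND-B17* (89.7 to 254 FPKM in control and 51.4 to 108 in mutant brains, -0.80) and *ND-ASHI* (206 to 520 and 110 to 225, -0.74) were also lower.

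The other 4 distal genes did not pass the test, and neither did *ND-MLRQ*. *ND-B18* was at 33.9 to 136 FPKM in controls and 27.8 to 59.6 in mutants (-0.59), *ND-MNLL* at 200 to 938 and 352 to 721 (-0.11), and *ND-SGDH* at 258 to 560 and 319 to 489 (-0.07). *ND-AGGG* was at 326, 400 and 190 against 613, 239 and 557 in females and 303, 88.1 and 459 against 317, 312 and 385 in males (0.56 ± 0.40, limma adjusted p = 0.311). *ND-MLRQ* had the most positive value of all 34. It was at 2160, 2492 and 1774 FPKM against 2983, 2277 and 3637 in females and at 2391, 207 and 2828 against 2855, 2610 and 2815 in males (0.88 ± 0.56, limma adjusted p = 0.257). Without control male brain replicate 2, which gave the 207, the difference was 0.27 ± 0.19 (limma adjusted p = 0.298), and that of *ND-AGGG* was 0.21 ± 0.29 (adjusted p = 0.598).

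**Figure D3:**
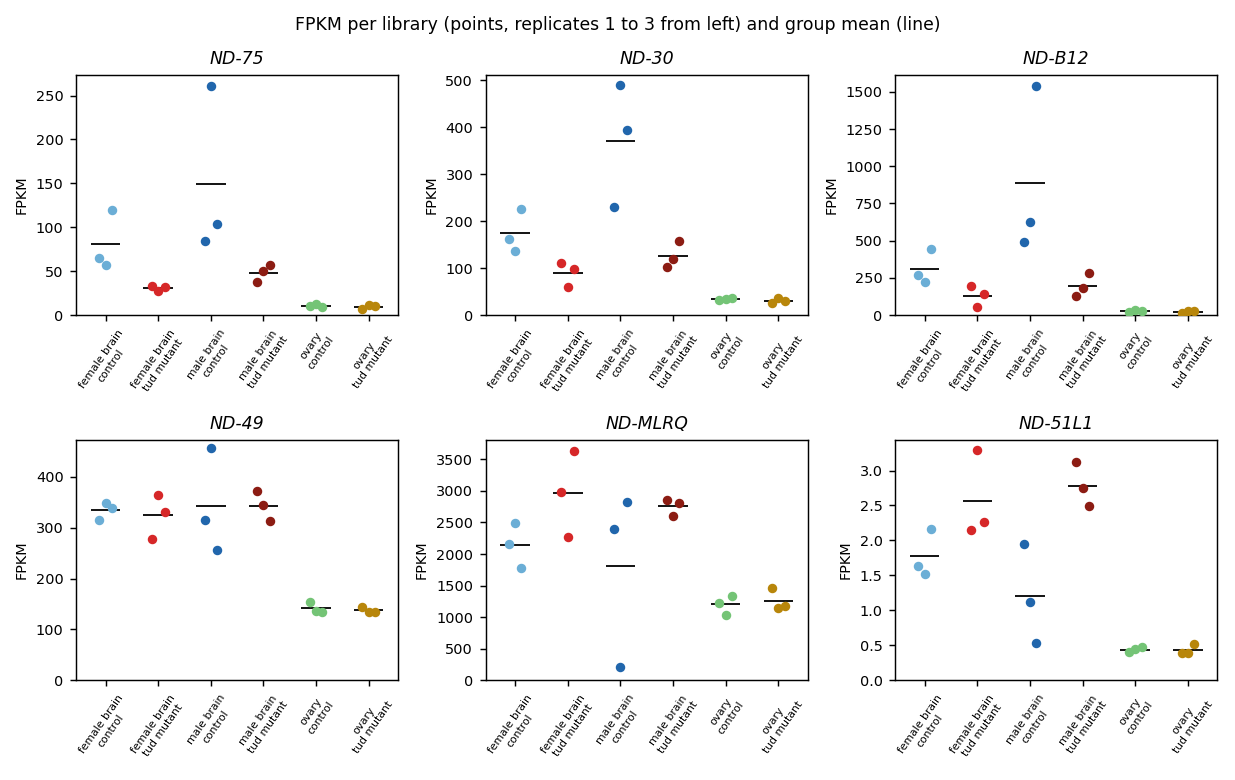
FPKM of 6 genes in all 18 libraries, with points for replicates 1 to 3 from left to right and a line at the group mean, each panel on its own linear axis from 0. *ND-75*, *ND-30* and *ND-B12* are lower in mutant than in control brains of each sex, *ND-49* overlaps between genotypes, *ND-MLRQ* has 1 low control library (207 FPKM), and the paralog *ND-51L1* is at most at 3.29 FPKM.

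Control male brain replicate 2 shaped several of these values. Against the mean of the other control male brains it was lower for 24 and higher for 10 of the 34 genes, from -3.65 on the log2 scale for *ND-MLRQ* to 1.48 for *ND-75*, and the deviation followed exonic length (rank correlation 0.616 over 34 genes, a description). Without this library 18 canonical genes were called lower, where 9.73% of all genes were. The call of *ND-PDSW* was lost, and those of *ND-ACP* (-0.51, limma adjusted p = 0.046) and *ND-B14.5B* (-1.04, adjusted p = 0.0498) were gained. *ND-MWFE*, at 0.00 with the library, was at -0.35 without it (limma adjusted p = 0.161), and *ND-49* moved from -0.01 to 0.11 (adjusted p = 0.516). With the library left out and a length trend taken off each of the others, an alternative chosen after seeing the data, 23 were called, where 15% of all genes were lower.

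The brain count rested on other libraries as well. All 17 genes kept their sign when any 1 library was left out, but 1 of them was called without mutant male brain replicate 1, 2 without control female brain replicate 3 and 5 without mutant male brain replicate 2. Leaving out the library labelled mutant female brain replicate 2 kept 10 calls, leaving out control male brain replicate 3 also kept 10, and leaving out control female brain replicate 2 kept 11. The share of all genes called in either direction fell as well, from 24.9% with all 12 libraries. In the order of these 6 fits it was 3.58%, 4.79%, 6.80%, 13%, 13.8% and 9.56%.

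The libraries differed among themselves in their complex I level as a whole. The median deviation of the 34 genes from their brain mean was 0.39, 0.33 and 0.90 in control male brains and -0.38, -0.21 and 0.13 in mutant male brains, groups that did not overlap. It was -0.06, -0.12 and 0.26 in control female brains and -0.10, -0.88 and -0.32 in mutant female brains, which overlap by 1 library. In ovaries it stayed between -0.13 and 0.06. The sum of FPKM over all genes differed between brain libraries as well. It was highest in control male brain replicate 3 (3.41e+06) and lowest in the library labelled mutant female brain replicate 2 (9.87e+05). These libraries were also the extremes of the deviation. Mutant female brain replicate 1 (2.56e+06, at -0.10) and control male brain replicate 2 (1.03e+06, at 0.33) did not follow that order. With median-of-ratios scaling 17 canonical genes were called in the brain fit, where 24.6% of all genes were, in either direction. With quantile normalization 17 were called as well (24.5% of all genes), and the median difference was -0.60. The deviations were not recomputed under these scalings, and the part of this scale in them was not tested.

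**Figure D4:**
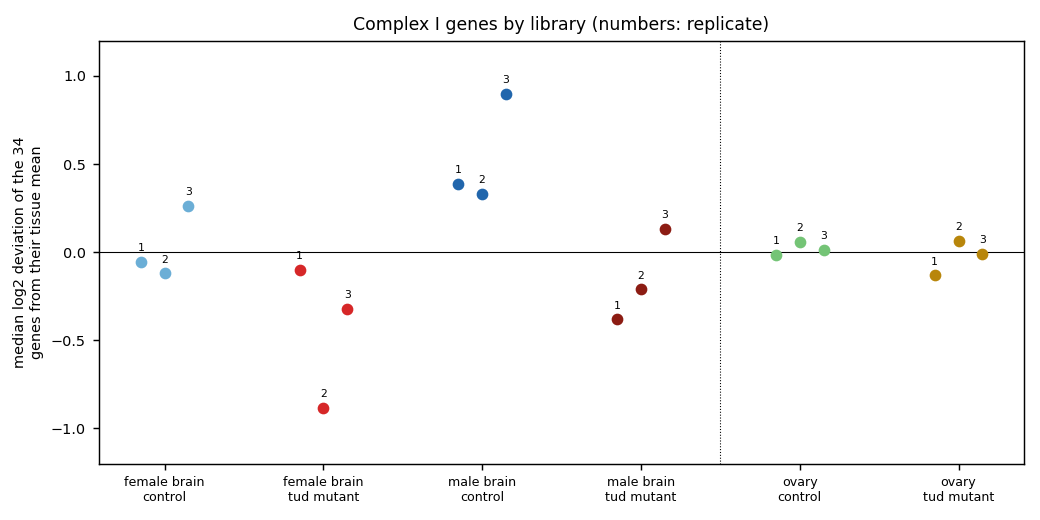
Median over the 34 canonical genes of the log2 deviation of each library from the mean of its tissue, with replicate numbers above the points and a dotted line between brain and ovary libraries. Control male brain replicate 3 is highest (0.90), the library labelled mutant female brain replicate 2 is lowest (-0.88), and the 6 ovary libraries lie within -0.13 and 0.06.

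As a share of all protein-coding FPKM the genotypes were closer. The 34 genes held 1.71% to 1.91% in control and 1.56% to 1.73% in mutant female brains, and 1.94% to 2.31% in control and 1.82% to 2.03% in mutant male brains. Both ranges overlap. This sum is led by *ND-MLRQ*, which did not pass the test.

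Within each sex no canonical gene passed in the main fit, which used all libraries. In female brains 0 of 34 genes were called by limma (0.337% of all genes were), with 32 negative differences and a median of -0.48. There 10 of the 34 had an unadjusted p under 0.05, as did 1802 of the 10689 genes tested. In male brains 0 of 34 were called (1.23% of all genes), with 28 negative differences and a median of -0.76. Here 19 of the 34 had an unadjusted p under 0.05, as did 3549 of the 10689 genes tested. The male count depended on the fit. It was 14 with the length trend removed (5.34% of all genes were lower), 14 without control male brain replicate 1 (12.4%) and 12 without the library labelled mutant female brain replicate 2 (5.20%), which enters through the shared estimate of the spread. The lowest limma adjusted p in the main fit was 0.212 for *ND-75* in females and 0.058 for *ND-30* in males. Every mutant library lay under every control for 13 genes in females and 22 in males, where 15.3% and 15.9% of all genes did so. Whether the sexes differed in their change was tested directly, and 0 of 34 genes were called (0.0187% of all genes), with a median of 0.19. For this change 0 of the 34 had an unadjusted p under 0.05, against 137 of the 10689 genes tested.

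Complex I genes were lower in female than in male brains of controls in most cases, but no gene passed. Of 34 genes 28 had a negative female minus male difference, with a median of -0.55 against 0.05 over all genes. By limma 0 were called (0.281% of all genes were). An unadjusted p under 0.05 was reached by 13 of the 34, and by 1067 of the 10689 genes tested. Among the 13 were *ND-B12* (-1.39 ± 0.54, limma adjusted p = 0.462) and *ND-30* (-1.05 ± 0.33, adjusted p = 0.410). Among mutants 32 of 34 were negative with a median of -0.31, and 0 were called by limma (0.131% of all genes were). An unadjusted p under 0.05 was reached by 0 of the 34, and by 349 of the 10689 genes tested.

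In ovaries the genotypes overlapped for every canonical gene. None of the 33 genes tested was called by limma (4.09% of all 8254 genes were, in either direction). An unadjusted p under 0.05 was reached by 0 of the 33, and by 1536 of the 8254. The median difference was -0.05, with values from -0.39 for *ND-AGGG* (138, 105 and 140 FPKM in controls, 116, 79.4 and 97.8 in mutants) to 0.20 for *ND-B14*. The ovary errors were small, with a median SE of 0.09 against 0.24 in the brain fit. *ND-75*, which had fallen in brains, was at 9.75, 12.3 and 9.43 FPKM in control and 6.77, 11.7 and 10.5 in mutant ovaries (-0.13 ± 0.19 SE, limma adjusted p = 0.784).

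The change in ovary minus the change in female brain was positive for 31 of 33 genes, with a median of 0.46. Without the library labelled mutant female brain replicate 2 the median was 0.20. None was called by limma (1.05% of all genes were, in either direction). An unadjusted p under 0.05 was reached by 8, a count whose share over all genes is not set beside it here. The lowest adjusted p was 0.140, for *ND-75*. The brain and ovary changes were thus not separated by this test for any single gene.

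The paralogs were barely detected in the tissues sampled, brain and ovary. Together the 6 summed to 1.94 to 6.31 FPKM in brain libraries and 0.584 to 0.908 in ovary libraries. *ND-20L* was listed at 0 in all 18 libraries, and *ND-24L* in all but 3 mutant brain libraries, where it was at 0.172, 0.259 and 0.235. *ND-B14.5AL* was listed at 0 in every ovary library and at 0 to 1.96 in brains, *ND-49L* was at 0.0251 to 0.154 in ovaries and 0.0687 to 1.31 in brains, and *ND-51L2* at 0.0908 to 0.352 and 0.222 to 1.02.

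*ND-51L1*, a paralog of the flavin-binding subunit at chr2R:17595267-17597409, was the one paralog high enough to test in brain. It was at 1.64, 1.52 and 2.17 FPKM in control and 2.15, 3.29 and 2.27 in mutant female brains, and at 1.95, 1.12 and 0.530 in control and 3.12, 2.75 and 2.49 in mutant male brains. It was higher in mutants (0.59 ± 0.18 SE, limma adjusted p = 0.038), with groups apart in males and overlapping by 1 library in females. This is opposite to *ND-51*, at levels far lower, and the call was lost under quantile normalization (0.35, limma adjusted p = 0.224). It was also lost without control male brain replicate 2 (0.59, limma adjusted p = 0.053), and in 10 of the 12 fits that left out 1 library, with adjusted p from 0.00789 to 0.0960 over the 12. By sex the difference was 0.36 ± 0.26 in females (limma adjusted p = 0.481) and 0.83 ± 0.26 in males (adjusted p = 0.075), and the sexes' changes differed by -0.48 ± 0.36 (adjusted p = 1.00). Between female and male brains it differed by 0.38 ± 0.26 in controls (limma adjusted p = 0.605) and -0.09 ± 0.26 in mutants (adjusted p = 1.00). In control ovaries it was at 0.403, 0.441 and 0.472 FPKM, a difference from female brain of -0.94 ± 0.17 (limma adjusted p = 2.84e-04), and in mutants of -1.30 ± 0.17 (adjusted p = 2.12e-05). The direction of both turned under quantile normalization, to 0.43 and 0.17. Its ovary change minus its female brain change was -0.36 ± 0.23 (limma adjusted p = 0.402).

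Other nuclear genes of oxidative phosphorylation were lower in mutant brains less widely, and the difference between lists was not tested. Of 36 genes of complexes II to V tested, 10 were lower and 0 higher, with a median of -0.32, where 10.8% of all genes tested were lower. They were *SdhB* (-0.82), *SdhC* (-0.55) and *SdhD* (-0.48) of succinate dehydrogenase, *UQCR-C2* (-1.48), *UQCR-C1* (-1.09) and the Rieske protein *RFeSP* (-0.80) of complex III, *COX4* (-0.61) of complex IV, and *ATPsyngamma* (-0.79), *ATPsynD* (-0.79) and *ATPsyndelta* (-0.77) of ATP synthase. Of the 14 assembly factors listed only 3 were matched by symbol, and the rest were not examined. Of these 3, *CIA30* (-0.62) and *sicily* (-0.53) were lower and *Nubpl* was at 0.50 (limma adjusted p = 0.128). Mitochondrial ribosomal protein genes were lower for 28 of 70, with a median of -0.37. Among 8 genes of the mitochondrial nucleoid and transcription, the catalytic subunit *PolG1* of the mitochondrial DNA polymerase was lower (-0.50, limma adjusted p = 0.041), and *TFAM*, the main packaging and transcription factor, was at -0.18 (adjusted p = 0.193).

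*srl*, the fly PGC-1 homologue and a coactivator of mitochondrial genes, was higher in mutant brains (0.79 ± 0.18 SE, limma adjusted p = 0.018). It was at 4.25, 4.04 and 4.15 FPKM in control and 5.76, 11.2 and 6.92 in mutant female brains, and at 3.52, 2.22 and 1.89 in control and 6.15, 5.58 and 4.09 in mutant male brains, with no overlap in either sex. *ewg*, related to the nuclear respiratory factor NRF-1, was at 0.51 (limma adjusted p = 0.079).

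Markers of cell types were read in the same brains. Of all genes tested there, 14.2% were higher and 10.8% lower, with a median log2 difference of 0.07. Of 11 photoreceptor genes 7 were higher and 0 lower, with a median of 1.11, and their summed level was 3451 to 3832 FPKM in control and 3074 to 10603 in mutant female brains, and 2531 to 3856 in control and 5337 to 8038 in mutant male brains. Of 6 neuronal genes 3 were higher, with a median of 1.14, and their sums were 284 to 635 and 756 to 1560 in females and 278 to 709 and 929 to 1070 in males. Of 7 glial genes 1 was higher (*moody*, 0.62) and 2 lower (*Gs2*, -0.70, and *wrapper*, -0.51), with sums of 2455 to 2747 and 2694 to 2937 in females and 3020 to 3049 and 2760 to 3010 in males. None of these photoreceptor, neuronal or glial markers was at 0 in any brain group. Their part in the complex I result was not tested.

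Other lists had few calls, and stand beside the same 14.2% of all genes tested that were higher and 10.8% lower. An unadjusted p under 0.05 was reached by 4462 of the 10689 genes tested. Muscle markers were higher for 1 of 10 (*fln*, 1.03), haemocyte markers lower for 1 of 5 (*NimC1*, -0.68), fat body markers were called for 0 of 5, with 1 at an unadjusted p under 0.05, and testis markers for 0 of 1 and follicle cell markers for 0 of 2, with 0 at an unadjusted p under 0.05 in these. Both germline markers tested, *aub* (0.81) and *grk* (1.10), were higher. Over all 5 germline markers measured, tested or not, the sums were 1.52 to 3.77 FPKM in control and 5.35 to 8.78 in mutant brains. The longest protein-coding genes differed from the rest, with a median of 0.25 at 3000 or more bases of exon. This median was -0.06 both at 1500 to 3000 bases and under 1500 bases. The canonical complex I genes have 460 to 2634 bases of exon (median 843), and among them the difference had a rank correlation of -0.17 with length.

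Position and overlap were also set beside the result. On the second chromosome, which differs between the genotypes by balancer and deficiency, 6 of 15 canonical genes were lower with a median of -0.49, and elsewhere 11 of 19 with a median of -0.66. Of the 9 canonical genes on the X chromosome, 6 were lower. Among all genes tested 10.8% were lower, and the shares by chromosome were not worked out, so these counts are descriptions. The part of position in the result was not tested. Exons of 16 genes overlap another gene on the opposite strand, of which 7 were lower, and exons of 4 (*ND-15*, *ND-MLRQ*, *ND-MNLL* and *ND-MWFE*) overlap a gene on their own strand. Whether strand was used in the quantification is not given in the sources used here, so reads from such neighbours cannot be told apart.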

How the data were processed

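Per the labels, the authors made stranded total RNA libraries after depleting rRNA and cutting out small RNA by size, and mapped reads to dm6. The labels name TopHat2 2.0.13 and Cuffnorm 2.2.1. The deposited table holds their FPKM values per gene and library, and whether these were scaled between libraries is not given in the sources used here. All 18 columns of per-sample values were used, leaving 0 unused. Depth was estimated from FPKM steps with 200 bases taken off each exonic length (98.2% to 99.4% of low values within 0.15 of whole fragments). These estimates carry no interval. Positions and symbols came from Ensembl release 115, with 17016 identifiers matched.

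Values were tested as log2(FPKM + 1), which understates changes of low genes, with limma 3.58.1 in R 4.3.3 (empirical Bayes with trend, two-sided) over genes whose mean FPKM was 1 or more. The fits used 12 brain libraries, 6 ovary libraries, or 12 libraries of females. Benjamini-Hochberg adjustment was over all genes tested, at 0.05. The code was tested on simulated data. Members and lists were chosen with earlier results of these data known. Every member is named with levels, and statistics are given for the 8 largest called differences of a contrast and each testable paralog. A planned promoter motif search was not run, and no sequences were used. Alternatives changed the pseudocount, filter, scaling, length trend, block, threshold, model and libraries.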

Additional observations from a re-analysis of the deposited data

How the results depend on the processing

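Alternatives were tried for every comparison. The 17 genes lower in mutant brains kept their sign in all of them, and at an adjusted p of 0.01 the brain count was 0. In the other planned settings with all libraries, 15 to 24 canonical genes were called (24 with the gene length trend removed, 15 in a model without sex). Leaving out 1 library at a time gave 1 to 18. In male brains the count was 1 with protein-coding genes only, 14 with the length trend removed, and 0 to 14 with 1 library left out (14 without control male brain replicate 1 and 12 without the library labelled mutant female brain replicate 2). In female brains it was 1 with control male brain replicate 2 left out and the length trend removed, an alternative chosen after seeing the data, and 0 in the others. The median of ovary minus female brain moved in controls to -1.88 with quantile normalization and -1.46 with the length trend removed, and in mutants to -1.08 with the latter. The median of the ovary change minus the female brain change was 0.20 (without the library labelled mutant female brain replicate 2) to 0.65 with 1 library left out. Both tissue differences of ND-51L1 reversed under quantile normalization (0.43 in controls, 0.17 in mutants). With the replicate number as a block, 18 genes were called in brains, the 17 among them. Correlations of deviations for equal numbers were 0.036 to 0.087 in female brains, 0.048 to 0.287 in male brains and -0.107 to 0.031 in ovaries. Each brain library correlated best with its own number, and no ovary library did. These low values do not settle whether the numbers pair the brain libraries. Depth limits ND-B8 and the paralogs, whose values rest on few fragments.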
